A study of Mus musculus with 5 samples.

Results

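Livers of mice given troglitazone (TGZ) together with buthionine sulfoximine (BSO) were compared with livers of mice given rosiglitazone (RGZ) together with BSO, across the genes of an expression array. Both compounds are thiazolidinediones, and the doses and the time were matched in this pair of groups. A gene entered when the scanner software called it well above background on at least 1 of the 2 arrays, with 1 probe per gene name, the one with the highest mean over the 5 arrays of the study. By this rule 21360 of 36866 gene names on the array had a value, against 22328 names above background on at least 1 of the 5 arrays.

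The animals were 6-week-old female BALB/c mice, all dosed intraperitoneally, and the livers were taken at 6 hr. The BSO+TGZ and BSO+RGZ groups both received BSO at 700 mg/kg, and in addition TGZ or RGZ, each at 300 mg/kg. The other groups, shown beside them, received vehicle, 300 mg/kg TGZ or 300 mg/kg RGZ. No group received BSO alone. Each group was pooled liver RNA of 6 mice, hybridised once with a single dye, and the 5 arrays lay on 1 slide. There was therefore no replicate of any group and no test between groups, and a pool hides how much the 6 animals differed.

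Thiazolidinediones bind PPAR gamma, a nuclear receptor that switches on genes of fat storage and insulin response. They share the thiazolidinedione ring. Troglitazone carries a vitamin E-like chromanol at the other end of the molecule, and rosiglitazone a pyridyl-amino group. Troglitazone was withdrawn from clinical use because of liver injury, and the study's title concerns a mouse model of that injury. BSO blocks the synthesis of glutathione, which conjugates reactive drug metabolites in the liver.

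Signals are given as scaled signal, a linear brightness in arbitrary units with the 75th percentile of each array set to 178. A difference is BSO+TGZ minus BSO+RGZ on the log2 scale, and a fold is that difference on the linear scale. The interval after a fold is a 95% interval of the spot measurement error estimated by the scanner software. It leaves out the spread between animals and between hybridisations. "At least" marks a fold where 1 of the arrays was not well above background and the lowest signal called well above background on that array took the place of its value. A gene is called higher or lower here when the fold was 2 or more, which is a size and not a test. Of the genes with a value, 19370 were measured on both arrays, and their typical interval spanned 1.32-fold either way. In bulk liver RNA, fewer cells of a type and less RNA per cell cannot be told apart.

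Promoters of 6 genes that recur below are shown first, because they differ in the motif they carry and in the direction of the difference. Derl3, Creld2 and Syvn1 encode endoplasmic reticulum proteins and were lower with BSO+TGZ. Each is the 250 bases before the RefSeq start of the gene (GRCm38.p6), 5′ to 3′ on the strand of the gene. Capitals mark the ER stress element, CCAAT and CCACG with any 9 bases between them, searched on both strands.
Derl3 (chr10:75893148-75893397, + strand): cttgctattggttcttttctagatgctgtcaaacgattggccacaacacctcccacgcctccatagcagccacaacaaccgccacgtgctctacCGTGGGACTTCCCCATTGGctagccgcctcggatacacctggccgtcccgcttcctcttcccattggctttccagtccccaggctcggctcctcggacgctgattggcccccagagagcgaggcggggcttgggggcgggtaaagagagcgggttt
Creld2 (chr15:88819396-88819645, + strand): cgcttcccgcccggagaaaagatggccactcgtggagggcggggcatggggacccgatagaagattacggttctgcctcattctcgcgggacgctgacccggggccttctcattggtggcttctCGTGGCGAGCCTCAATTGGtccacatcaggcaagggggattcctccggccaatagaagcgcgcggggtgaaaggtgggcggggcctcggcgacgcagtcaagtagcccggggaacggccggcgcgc
Syvn1 (chr19:6046326-6046575, + strand): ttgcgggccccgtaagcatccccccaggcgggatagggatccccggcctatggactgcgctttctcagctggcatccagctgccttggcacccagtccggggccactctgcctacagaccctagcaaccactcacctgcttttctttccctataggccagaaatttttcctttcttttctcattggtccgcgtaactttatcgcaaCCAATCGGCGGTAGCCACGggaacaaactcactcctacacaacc
The other 3, the chemokine genes Cxcl1 and Cxcl2 and the NF-kappaB inhibitor gene Nfkbia, were higher with BSO+TGZ. Here capitals mark the NF-kappaB site, GGG and TTTCC with any 2 bases between them, on either strand. The site was not limited to higher genes. Of the 243 genes with a value and this site, 126 had more signal with BSO+TGZ and 117 had less.
Cxcl1 (chr5:90890995-90891244, + strand): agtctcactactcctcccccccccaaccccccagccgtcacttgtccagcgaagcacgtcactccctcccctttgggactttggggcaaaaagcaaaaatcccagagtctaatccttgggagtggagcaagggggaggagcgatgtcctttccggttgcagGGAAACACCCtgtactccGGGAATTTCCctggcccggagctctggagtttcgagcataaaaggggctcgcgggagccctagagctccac
Cxcl2 (chr5:90903649-90903898, + strand): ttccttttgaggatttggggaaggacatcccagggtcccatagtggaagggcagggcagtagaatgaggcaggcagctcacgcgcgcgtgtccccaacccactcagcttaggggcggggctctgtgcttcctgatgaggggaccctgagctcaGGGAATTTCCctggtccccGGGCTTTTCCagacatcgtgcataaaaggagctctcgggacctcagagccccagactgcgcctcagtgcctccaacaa
Nfkbia (chr12:55492648-55492897, - strand): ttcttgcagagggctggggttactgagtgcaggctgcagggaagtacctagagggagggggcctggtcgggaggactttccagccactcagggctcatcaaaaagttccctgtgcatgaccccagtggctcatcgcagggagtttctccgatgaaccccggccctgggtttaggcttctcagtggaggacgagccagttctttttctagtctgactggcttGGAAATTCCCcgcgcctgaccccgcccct
None of the marked matches overlapped a match of the other 12 motifs searched.

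The largest differences between the compounds were higher with BSO+TGZ. Of the genes with a value, 1774 were at least 2-fold higher with BSO+TGZ (8.31%) and 1124 at least 2-fold lower (5.26%), together 13.6%. The asymmetry grew with the size of the fold, with 466 genes at least 4-fold higher against 71 lower, 130 against 6 at 8-fold, and 44 against 1 at 16-fold. The median difference over all genes was 0.04 on the log2 scale. The split into higher and lower depended on the scaling: higher genes were 61.2% of those past 2-fold with the 75th percentile, 45.3% with the array median and 30.7% with spike-in RNA. Spike-in scaling shifted the median of all measured genes by -0.32 on the log2 scale, and each difference below stands relative to the 75th percentile.

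**Figure D1:**
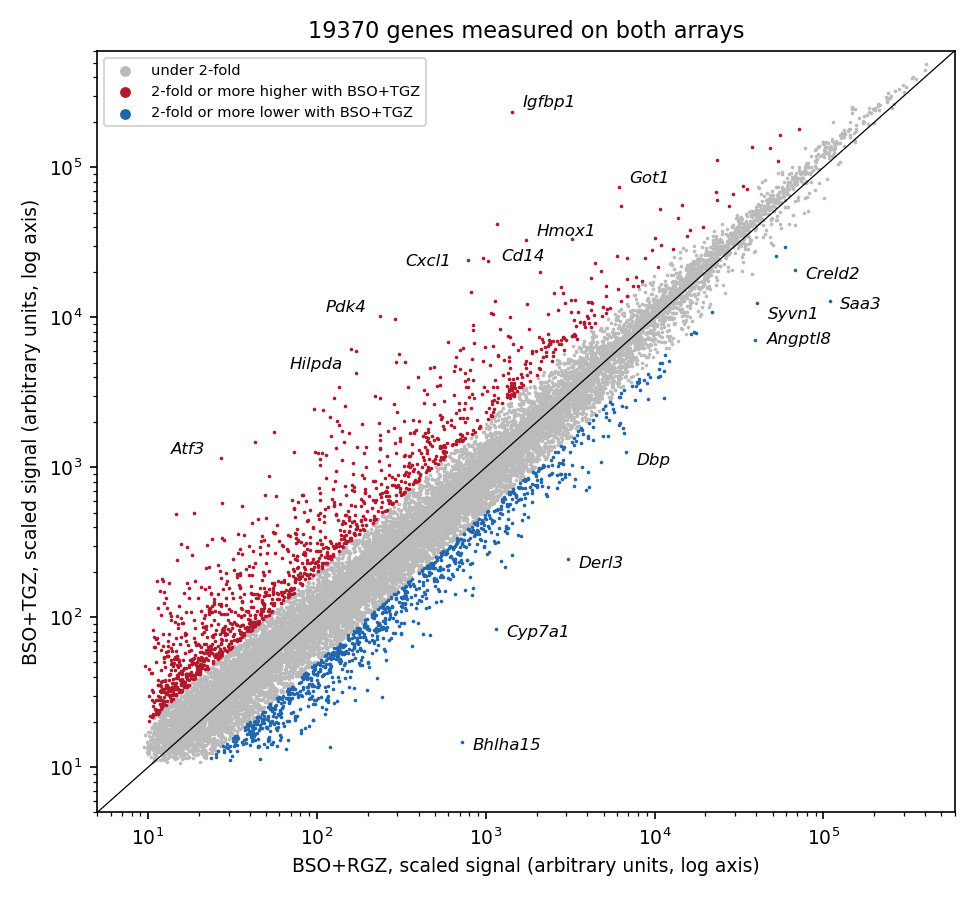
Scaled signal of each gene on the BSO+RGZ array (x axis) and the BSO+TGZ array (y axis), both on log axes in arbitrary units, for the 19370 genes measured on both arrays, with the diagonal marking equal signal. Genes at least 2-fold higher with BSO+TGZ are red and those at least 2-fold lower are blue; Igfbp1 lies farthest above the diagonal and Bhlha15 farthest below it.

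The genes named as the largest differences were measured on both arrays and carry a symbol of the RefSeq table that is no predicted name. None had another well measured probe that pointed the other way. For most of them no other probe was measured, so this last rule could not have excluded them. The exceptions were Srrm4, Retreg1, Cd14 and Ramp3 among the higher genes, and Cyp7a1, Gmppb, Fbxo21 and Dbp among the lower. Of all 664 genes past 2-fold with another measured probe, 569 (85.7%) had all other measured probes in the same direction. Igfbp1, which encodes a secreted binding protein of insulin-like growth factors, had the largest measured difference. Its signal was 5320 with vehicle, 305267 with TGZ, 235982 with BSO+TGZ, 1620 with RGZ and 1436 with BSO+RGZ. Both troglitazone arrays lay far above vehicle and both rosiglitazone arrays below it, and BSO+TGZ was 164-fold above BSO+RGZ (125 to 217). The Igfbp1 probe lies on chromosome 11 of mouse build mm9 at 7102442 to 7102501; no exon annotation of that build was used here.

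Pdk4, the kinase that shuts off pyruvate oxidation, had signals of 119 with vehicle, 11313 with TGZ, 10209 with BSO+TGZ, 149 with RGZ and 235 with BSO+RGZ. Ppp1r3g, a subunit that directs a phosphatase to glycogen, had 242, 8312, 6184, 117 and 159 in the same order. Hilpda, a lipid droplet protein that restrains fat breakdown, had 102, 7881, 5999, 140 and 171. In each of these 3 genes both troglitazone arrays stood above the other 3 arrays, and BSO+TGZ exceeded BSO+RGZ 43.5-fold, 39.0-fold and 35.0-fold. Hcar2, the receptor for niacin and hydroxybutyrate, was 26.4-fold higher, with signals of 496 against 18.8.

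Atf3, a factor switched on by many kinds of stress, had signals of 15.5 with vehicle, 1892 with TGZ, 1156 with BSO+TGZ, 28.3 with RGZ and 26.9 with BSO+RGZ. Nr4a1, an orphan nuclear receptor that responds within minutes to hours, had 124, 5878, 4253, 124 and 170. The rosiglitazone arrays were under 2-fold from vehicle in both, and the folds were 43.0 (31.3 to 59.1) and 25.1 (19.0 to 33.1). Maff, a small Maf factor, was 22.1-fold and the zinc finger factor Klf6 18.5-fold higher.

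Cxcl1, which attracts neutrophils, had signals of 680 with vehicle, 30079 with TGZ, 24070 with BSO+TGZ, 1416 with RGZ and 787 with BSO+RGZ, a 30.6-fold difference. Cd14, a co-receptor for bacterial lipopolysaccharide, had 151, 37172, 23602, 359 and 1037. All 4 treated arrays were above vehicle for Cd14, and BSO+TGZ was 22.8-fold above BSO+RGZ. Arid5a, an RNA-binding stabiliser of inflammatory transcripts, was 33.8-fold higher. Hmox1, the heme-degrading enzyme, had 813, 15305, 32792, 1329 and 1739, and was the only gene of these 20 apart from Srrm4, Myh7, Hcar2 and Dmbt1 whose BSO+TGZ signal exceeded that of TGZ.

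Several of the 20 are best known from other tissues. Srrm4, a splicing regulator of neurons, was 34.7-fold higher, with signals of 1485 against 42.8. Myh7, the slow muscle and heart myosin heavy chain, was 33.2-fold higher, with 488 against 14.7. Sphk1, which makes sphingosine 1-phosphate, was 31.0-fold higher. The others were Retreg1, a receptor for the autophagy of endoplasmic reticulum, at 25.5-fold, the scaffold protein gene Akap12 at 22.8-fold, and Ramp3, a partner of calcitonin family receptors, at 19.6-fold.

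Dmbt1, a scavenger receptor of epithelia, reached its fold by another route. Its signal was 2796 with vehicle, 2510 with TGZ, 3421 with BSO+TGZ, 543 with RGZ and 135 with BSO+RGZ. The vehicle and both troglitazone arrays were alike, the rosiglitazone arrays were low, and the fold was 25.4. Of the 20 genes it was the only one whose BSO+TGZ signal was under 2-fold from vehicle. For the other 19 the BSO+TGZ array was at least 2-fold above vehicle. The 20 were picked for a high BSO+TGZ signal relative to BSO+RGZ, which favours that count. It therefore cannot be set against the 8.31% of all genes in that comparison.

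Where BSO+RGZ was not well above background, a fold is a lower bound. Slc7a6, a transporter of basic and neutral amino acids, had signals of 407 with BSO+TGZ and 442 with TGZ and was not above background on the vehicle, RGZ and BSO+RGZ arrays, a difference of at least 43.3-fold. Thbs1, the matrix protein thrombospondin 1, was at least 34.9-fold higher, the steroid sulfate transporter gene Slc10a6 at least 27.4-fold, the adenylyl cyclase gene Adcy1 at least 24.7-fold and the G protein regulator gene Rgs1 at least 22.6-fold. Nkx1-1, a homeobox gene, stood apart from these. It was above background on the BSO+TGZ array alone, with a signal of 254 there, 2.66 with TGZ and 3.44 with BSO+RGZ, or at least 27.0-fold higher than with BSO+RGZ.

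In the other direction, Bhlha15 had by far the largest difference. It encodes MIST1, a transcription factor of secretory cells. Its signal was 22.5 with TGZ, 14.8 with BSO+TGZ, 263 with RGZ and 725 with BSO+RGZ, and it was not above background with vehicle. BSO+TGZ was 49.1-fold below BSO+RGZ (31.3 to 77.0), and BSO+RGZ was at least 73.1-fold above vehicle. The low BSO+TGZ signal makes this interval wide. Its probe lies on chromosome 5 of mm9 at 144955175 to 144955234.

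Cyp7a1, the enzyme that sets the pace of bile acid synthesis, had signals of 742 with vehicle, 83.5 with BSO+TGZ, 1920 with RGZ and 1155 with BSO+RGZ, and was not above background with TGZ. Both troglitazone arrays lay below vehicle and both rosiglitazone arrays above it, and the fold was 13.8 (10.4 to 18.4). Angptl8, a hormone that restrains lipoprotein lipase, had 19972 with vehicle, 1312 with TGZ, 7035 with BSO+TGZ, 27054 with RGZ and 39278 with BSO+RGZ, or 5.58-fold lower with BSO+TGZ. Dbp, an output factor of the circadian clock, had 9434, 574, 1259, 9193 and 6744, or 5.36-fold lower.

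Saa3 and Cxcl13 were inflammatory genes with more signal under rosiglitazone. Saa3, an acute phase serum amyloid, had 469 with vehicle, 3994 with TGZ, 12908 with BSO+TGZ, 19005 with RGZ and 109169 with BSO+RGZ. All treated arrays were above vehicle, and BSO+TGZ was 8.46-fold below BSO+RGZ. Cxcl13, which attracts B cells, had 25.8 with vehicle, 29.3 with BSO+TGZ, 172 with RGZ and 242 with BSO+RGZ, 8.26-fold lower. Mycl, a MYC family member, was 8.72-fold lower, the inducible heat shock protein gene Hspa1b 5.62-fold, and Gmppb, which makes the mannose donor for glycoproteins, 5.60-fold. The remaining genes of the 20 were Fam13a, Map3k21, Spata2l, Rtn4rl1, Hunk, Fbxo21, Fam89a, Dclk3, Cgref1 and Cpsf4l, from 6.11-fold down to 5.17-fold lower. Among the lower bounds, the DNA repair gene Xrcc3 was at least 7.07-fold lower with BSO+TGZ.

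**Figure D2:**
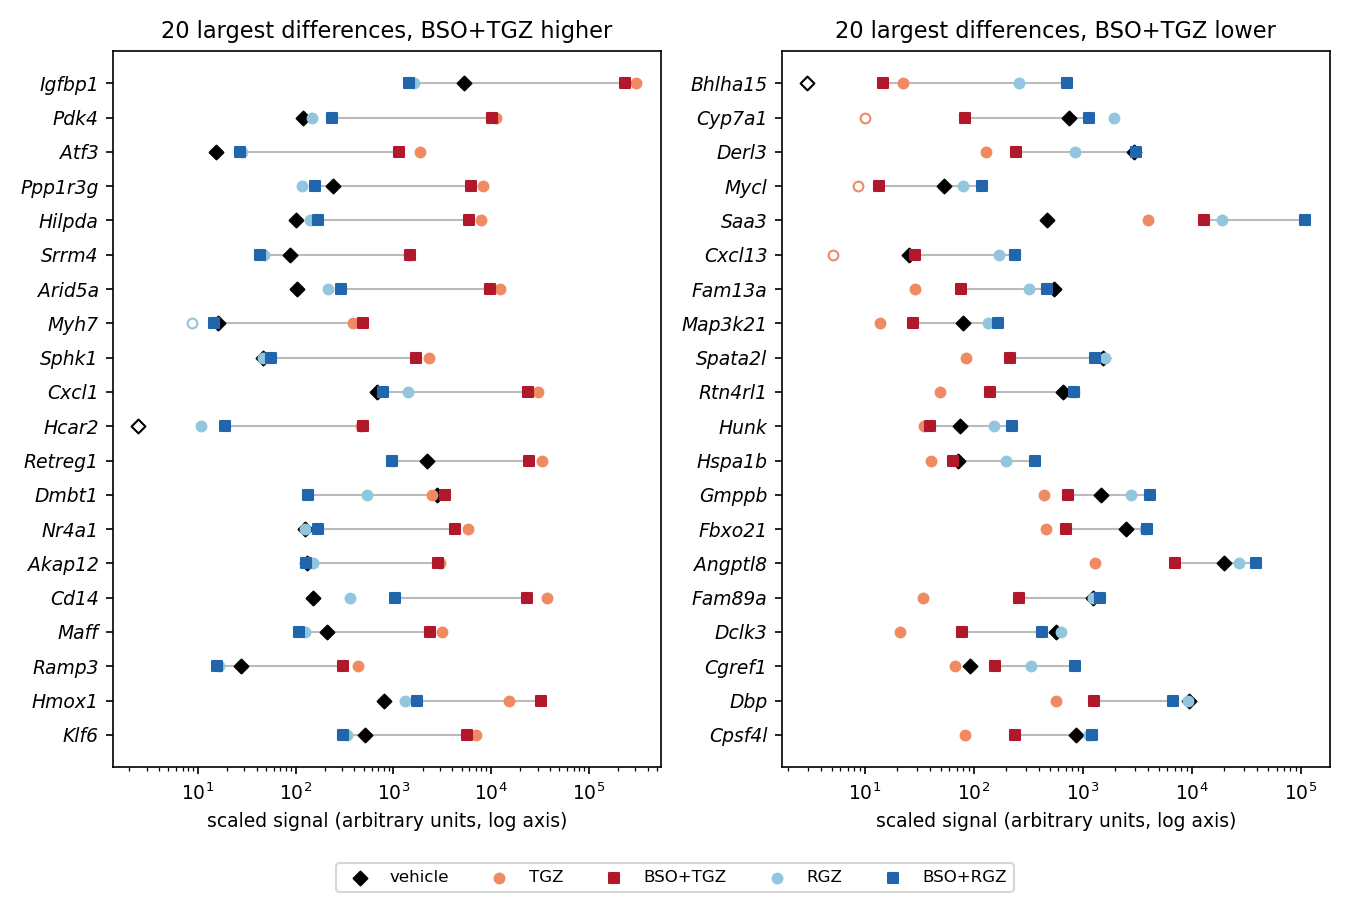
Scaled signal on all 5 arrays (log axis, arbitrary units) of the 20 genes with the largest measured difference in each direction, ordered by fold; the grey line joins BSO+RGZ to BSO+TGZ, and an open symbol is not well above background. On the left the troglitazone arrays lie to the right, and for Dmbt1 the vehicle lies with them; on the right the TGZ array (1 point per gene) lies left of BSO+TGZ for 19 of 20 genes.

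The vehicle array showed which side of each difference departed from the untreated level. Of the 1774 genes higher with BSO+TGZ, 813 (45.8%) had BSO+TGZ at least 2-fold above vehicle with BSO+RGZ under 2-fold from it. Another 178 had BSO+RGZ at least 2-fold below vehicle with BSO+TGZ under 2-fold from it. In 86 both were above vehicle, in 10 both below, and in 388 (21.9%) neither passed 2-fold. In 263 (14.8%) neither vehicle nor BSO+RGZ was above background. Of the 1124 lower genes, 506 had only BSO+TGZ at least 2-fold below vehicle, 147 (13.1%) only BSO+RGZ at least 2-fold above, and 404 (35.9%) had neither. Over all genes in each comparison with vehicle, 8.31% were at least 2-fold above and 5.89% below with BSO+TGZ, and 3.05% above and 3.78% below with BSO+RGZ. The 1774 and 1124 genes were picked for their difference between BSO+TGZ and BSO+RGZ, which favours a departure from vehicle. Their counts therefore cannot be set against these shares of all genes. Both comparisons use the same vehicle array, so an unusual vehicle value would enter both.

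**Figure D3:**
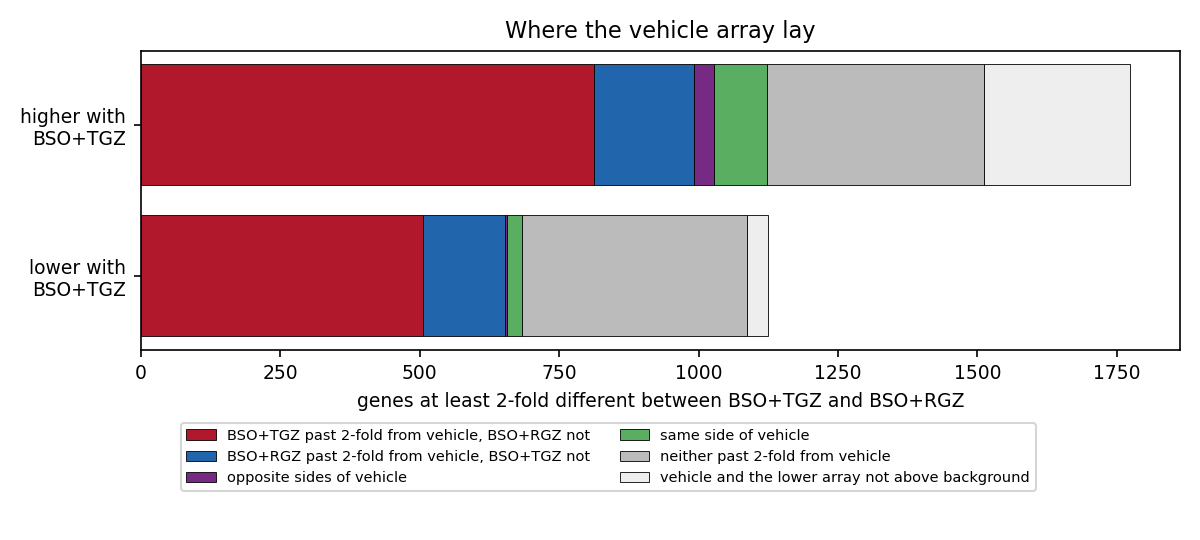
Number of genes at least 2-fold higher (upper bar) or lower (lower bar) with BSO+TGZ than with BSO+RGZ, divided by the position of the vehicle array. The red segments, BSO+TGZ past 2-fold from vehicle and BSO+RGZ not, hold 813 of 1774 and 506 of 1124 genes and are the longest in both bars.

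In 36 genes the compounds lay at least 2-fold on opposite sides of vehicle with BSO+TGZ above, and in 4 with BSO+TGZ below. Egr1, an immediate early transcription factor, had signals of 422 with vehicle, 1252 with BSO+TGZ and 101 with BSO+RGZ. Got1, the cytosolic aspartate aminotransferase, had 14684, 73587 and 6151. Rsad2, the antiviral protein viperin, had 133 with vehicle and 458 with BSO+TGZ, and BSO+RGZ was lower than vehicle. In these 3 genes BSO+TGZ exceeded BSO+RGZ by 3.64, 3.58 and 3.19 on the log2 scale. Igfbp1, Srrm4 and Retreg1 belonged to the same group, as did Adamts9, a secreted protease gene, and Gng7, a G protein subunit gene. On the other side were Mycl, Map3k21, Gmppb and Il12rb1, a receptor chain of interleukin 12.

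Gene lists showed how far such differences ran through a pathway. For each list the members at least 2-fold higher or lower are counted, to be read against 8.31% and 5.26% of all genes, and the median is to be read against 0.04 for all genes. The lists were chosen with earlier results of these data known, which can favour lists whose members differ. An excess over these shares is therefore a description and not a test. For the lists in the following 6 paragraphs the sign of the median was the same under the 10 alternative settings tried, unless stated.

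Immediate early genes, which respond to growth and stress signals without new protein synthesis, had the highest median of the lists shown in the plot of list members. Of 23 with a value, 18 passed 2-fold upward with BSO+TGZ and none downward, with a median of 2.14. Fos had signals of 54.0 with vehicle, 886 with TGZ, 648 with BSO+TGZ, 60.4 with RGZ and 57.2 with BSO+RGZ, or 11.3-fold higher. Btg2, an antiproliferative gene, had 131, 10977, 5027, 217 and 294, or 17.1-fold higher. BSO+TGZ was at least 2-fold above vehicle for 18 of the 23 and BSO+RGZ for 4. Dual-specificity phosphatases and Sprouty proteins, which dampen MAP kinase signalling, were 10 of 15 higher (6 with normexp) and none lower (median 1.24). Dusp8 was 7.20-fold higher, Dusp5 5.46-fold, and Spred2, an inhibitor of RAS signalling, 4.99-fold.

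Genes of cytokine signalling through STAT3 were higher with BSO+TGZ. Of 15 with a value, 11 passed 2-fold upward (7 with spike-in scaling) and none downward (median 1.23), and all 15 had a difference above 0. Socs3, the feedback inhibitor of this pathway, had signals of 351 with vehicle, 17072 with TGZ, 12279 with BSO+TGZ, 1098 with RGZ and 1747 with BSO+RGZ. BSO+RGZ was itself 4.98-fold above vehicle, and BSO+TGZ was 7.03-fold above BSO+RGZ. Socs1 was 9.57-fold and Socs2 7.61-fold higher, and the kinase genes Pim3 and Pim1 were 6.27-fold and 4.90-fold higher.

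Of 17 NF-kappaB subunits and feedback inhibitors, 6 were higher and 1 lower (median 0.75), and of 22 cytokines and chemokines, 6 were higher and 1 lower (median 0.69). The NF-kappaB count was 3 higher and 2 lower with spike-in scaling, and the cytokine count ran from 2 higher with normexp to 10 with no filter and no floor. Nfkbia, whose promoter is shown above, had signals of 3447 with vehicle, 9776 with TGZ, 7554 with BSO+TGZ, 4131 with RGZ and 3262 with BSO+RGZ, a difference of 2.32-fold (1.76 to 3.06). Tnfaip3, a ubiquitin-editing inhibitor, was 3.13-fold higher. Cxcl2 had signals of 47.0 with TGZ and 41.7 with BSO+TGZ and was not above background on the other 3 arrays, at least 4.43-fold higher than with BSO+RGZ. Il1rn, the antagonist of the interleukin 1 receptor, was 13.5-fold higher, and Il1r2, its decoy receptor, 16.8-fold. Il1r2 is also 1 of the neutrophil markers counted below. Of 15 receptor and signalling genes of interleukin 1 and Toll-like receptors, 3 were higher and none lower (median 0.26, and -0.06 with spike-in scaling). Nfkbie, another inhibitor of NF-kappaB, was 2.24-fold lower, with 132 against 296.

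Markers of neutrophils, a cell type that enters injured liver, were also higher with BSO+TGZ. Of 18 with a value, 9 were higher and 1 lower (median 1.40). Their summed signal was 20867 with vehicle, 48535 with TGZ, 48590 with BSO+TGZ, 22606 with RGZ and 23930 with BSO+RGZ, and 1 of the 18 was not above background with BSO+RGZ. S100a8 had 239 with vehicle, 4433 with TGZ, 4827 with BSO+TGZ, 784 with RGZ and 1064 with BSO+RGZ. Retnlg was 13.0-fold higher with BSO+TGZ and the collagenase gene Mmp8 5.69-fold. Fpr1 was the lower marker, at -1.25 on the log2 scale, and Ly6g and Fpr2 were among those that did not pass 2-fold. The neutrophil median was 0.72 with normexp background correction. Of 17 markers of Kupffer cells and macrophages, 3 were higher and none lower (median 0.23), and with spike-in scaling 1 and 1 (median -0.09). Their part in the cytokine differences was not tested. Hepatocyte genes, which identify the tissue, were bright on both arrays, with 0 of 17 past 2-fold (median 0.24, but -0.05 with quantile normalization and -0.08 with spike-in scaling).

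Targets of PPAR gamma and lipid droplet genes, the class both drugs are known to act on, differed as well. Of 19 with a value, 8 were higher with BSO+TGZ and 1 lower (median 0.69). Plin4, a lipid droplet coat protein, had signals of 159 with vehicle, 4967 with TGZ, 4665 with BSO+TGZ, 437 with RGZ and 497 with BSO+RGZ, a 9.39-fold difference. Cidec, which enlarges lipid droplets, had 122, 6552, 4760, 310 and 656, and the fatty acid carrier gene Fabp4 684, 4141, 3410, 712 and 1106. All 4 treated arrays were above vehicle for Plin4 and Cidec. For Fabp4 the RGZ array was close to vehicle, at 712 against 684, and the remaining treated arrays were above it. Troglitazone arrays were above rosiglitazone arrays for these genes, 7.26-fold for Cidec and 3.08-fold for Fabp4 with BSO. G0s2, an inhibitor of fat breakdown, went the other way, with 983 with vehicle, 479 with TGZ, 1623 with BSO+TGZ, 5214 with RGZ and 5307 with BSO+RGZ. Among genes of fatty acid oxidation and other PPAR alpha targets, 3 of 28 were higher, namely Pdk4, Cpt1b at 2.75-fold and Ucp3 at 2.74-fold, and none lower (median 0.10, with a negative sign under median, quantile and spike-in scaling).

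Of 17 insulin, FOXO and glucocorticoid targets, 6 were higher and none lower (median 0.65). Irs2, the insulin receptor substrate of liver, had 1021 with vehicle, 10570 with TGZ, 6761 with BSO+TGZ, 965 with RGZ and 851 with BSO+RGZ, or 7.95-fold higher. Genes of glucose handling went both ways, with 4 of 17 higher and 3 lower (median 0.17, and -0.15 with spike-in scaling). Besides Ppp1r3g, the coactivator gene Ppargc1a was 6.62-fold and the glycolytic regulator gene Pfkfb3 6.40-fold higher. G6pc, which releases glucose from liver cells, had 8226 with vehicle, 629 with TGZ, 4097 with BSO+TGZ, 10157 with RGZ and 10823 with BSO+RGZ, or 2.64-fold lower. Its signal with BSO+TGZ lay between those of TGZ and vehicle.

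**Figure D4:**
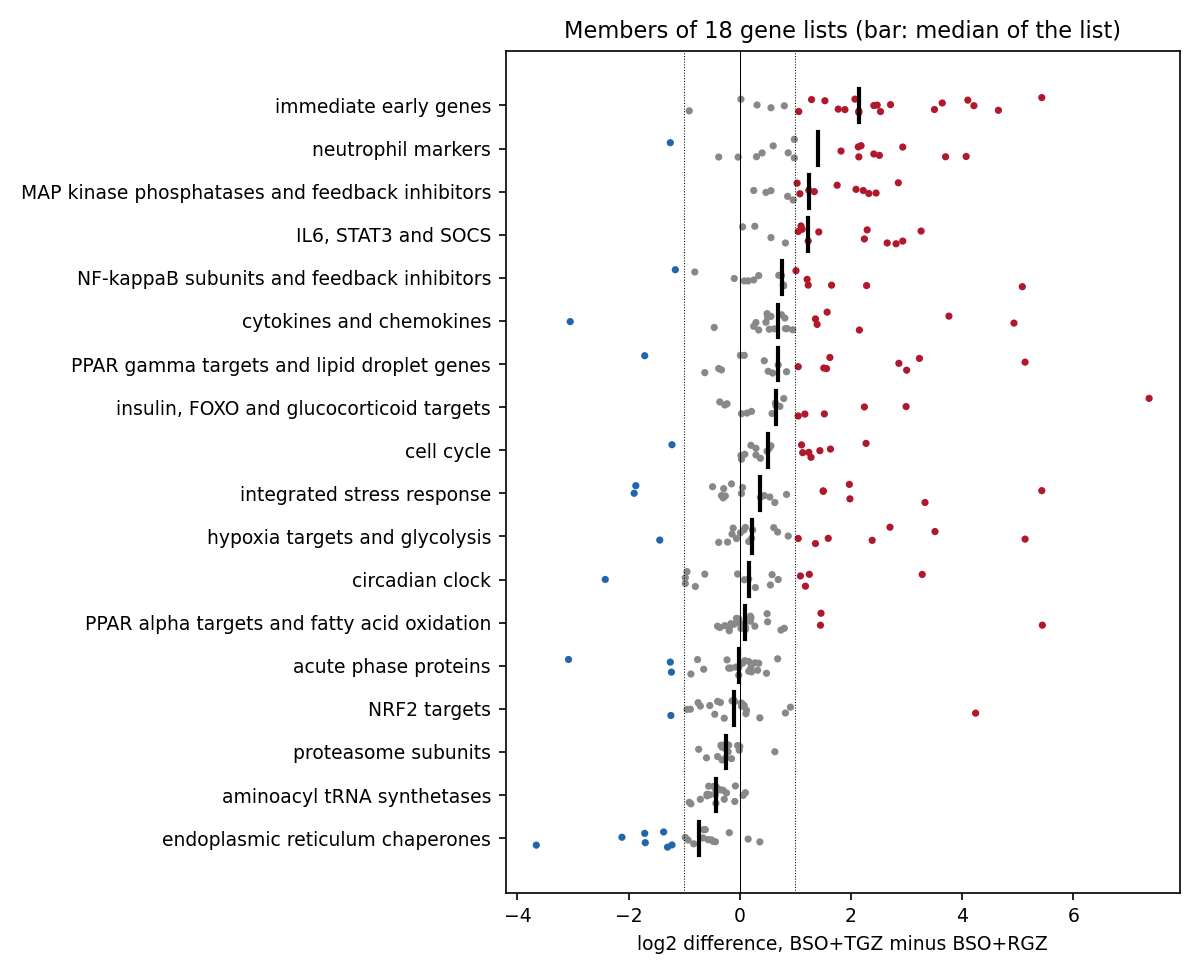
Log2 difference, BSO+TGZ minus BSO+RGZ, of each member with a value (points, with vertical scatter added for legibility) in 18 gene lists; black bars are list medians, dotted lines mark 2-fold, red points are at least 2-fold higher and blue at least 2-fold lower. The median runs from 2.14 for immediate early genes at the top to -0.74 for endoplasmic reticulum chaperones at the bottom.

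Endoplasmic reticulum chaperones, the folding and degradation machinery of secreted proteins, were the list with the lowest median. Of 20 with a value, none was at least 2-fold higher with BSO+TGZ and 7 were lower (median -0.74), and 18 had a difference below 0. Derl3, a factor that passes misfolded proteins to degradation, had signals of 2952 with vehicle, 131 with TGZ, 244 with BSO+TGZ, 847 with RGZ and 3081 with BSO+RGZ. Vehicle and BSO+RGZ were alike and the other 3 arrays lower, and the fold was 12.6 (9.55 to 16.6). Sdf2l1, a cofactor of the chaperone BiP, had 2220, 637, 930, 2020 and 4044, or 4.35-fold lower.

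Creld2 and Syvn1 differed from Derl3 in where vehicle lay. Creld2, a secreted stress protein, had 30364 with vehicle, 18197 with TGZ, 20567 with BSO+TGZ, 38032 with RGZ and 67475 with BSO+RGZ. Syvn1, the ubiquitin ligase of degradation, had 13679, 12320, 12511, 24512 and 40654. In both, BSO+RGZ was at least 2-fold above vehicle and BSO+TGZ under 2-fold from it, and BSO+TGZ was 3.28-fold and 3.25-fold lower. Pdia4 was 2.58-fold lower, the secreted factor gene Manf 2.47-fold and the co-chaperone gene Dnajb9 2.33-fold. The 2 members above 0, named after their values were seen, were Xbp1 at 0.36 and Herpud1 at 0.15 on the log2 scale. The BSO+RGZ signal exceeded the RGZ signal for 19 of the 20 members. This was not particular to the list. It also held for 19 of 20 ribosome biogenesis factors and 18 of 19 proteasome subunits, but for only 2 of 19 respiratory chain subunits. The share over all genes was not counted.

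The ER stress element shown above was in the promoter of 9 of the 18 list members with a RefSeq promoter, and in 20 of all 12315 genes with a value and a promoter (0.162%). The windows searched ran from 250 bases before to 50 bases after the start, longer than those printed. All 9 list members with the element had a difference below 0 (median -0.62), including the 3 genes of the 20 that passed 2-fold. Of all 20 members of the chaperone list, 18 were below 0 (median -0.74) and 7 were at least 2-fold lower. The members with the element were thus no lower than the list as a whole. Of the 11 genes with the element outside the list 6 were below 0 (54.5%, median -0.04), against 50.7% of all genes with a promoter (median -0.01). The NF-kappaB site was in 3.08% of the higher genes with a promoter, 2.08% of the lower and 1.97% of all. Of the 243 genes with this site, 126 were above 0 and 117 below (median 0.03, against -0.01 for all genes with a promoter). Past 2-fold, 31 of them were higher and 16 lower, with Fgf21, Mvd and Csad among the lower. The AP-1 site TGANTCA was in 10.2% of the higher genes, 6.51% of the lower and 7.17% of all, on either strand. The match of letters describes the sequence, and factor binding was not measured.

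Lists of protein synthesis and turnover did not share 1 direction. Of 20 aminoacyl tRNA synthetases, which load amino acids onto transfer RNA, none passed 2-fold, yet 18 had a difference below 0 (median -0.43). Yars was 1.87-fold lower (1.42 to 2.47) and Rars 1.84-fold. Of 19 proteasome subunits 18 had a difference below 0 (median -0.25), with the exception Psmb2 at 0.63. Of 19 cytosolic ribosomal proteins 2 had a difference below 0 (median 0.13, with a negative sign under median, quantile and spike-in scaling), and of 20 ribosome biogenesis factors 12 (median -0.05), with none past 2-fold in either list. Of 21 integrated stress response genes, which are switched on when translation is curbed, 6 were higher and 2 lower (median 0.37, and 0.05 with spike-in scaling). Ddit4, an inhibitor of the growth kinase mTORC1, had 994 with vehicle, 16488 with TGZ, 10772 with BSO+TGZ, 898 with RGZ and 1075 with BSO+RGZ, a difference of 3.33 on the log2 scale. Ddit3, which encodes the stress factor CHOP, had 85.3, 121, 73.1, 186 and 274, or 3.74-fold lower. Fgf21, a liver hormone, had 148, 562, 729, 1009 and 2658, or 3.65-fold lower.

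Glutathione itself was not measured, and both groups received BSO. Of 23 NRF2 targets 1 was higher and 1 lower (median -0.11), namely Hmox1 and the glutathione transferase gene Gstp1. With median scaling 3 were lower and with spike-in scaling 5 (median -0.43). Gstp1 had 4698 with vehicle, 3800 with TGZ, 4504 with BSO+TGZ, 4718 with RGZ and 10672 with BSO+RGZ, so that BSO+RGZ alone stood apart, and BSO+TGZ was 2.37-fold lower. Nqo1, a quinone reductase, was 1.93-fold lower (1.45 to 2.56). Among 15 genes of glutathione synthesis and breakdown, Chac1, which degrades glutathione, was 3.93-fold higher and Chac2, its relative, 2.08-fold lower (median -0.26). The synthesis subunit gene Gclm had 7562 with BSO+TGZ and 12402 with BSO+RGZ, or 1.64-fold lower.

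Genes of DNA damage and growth arrest included several large differences, while their list as a whole was centred near 0. Of 20 such genes 7 were higher and 1 lower (median 0.03, with a negative sign under median and spike-in scaling and with normexp). Cdkn1a, which encodes the cell cycle inhibitor p21, had 94.2 with vehicle, 7797 with TGZ, 6052 with BSO+TGZ, 311 with RGZ and 705 with BSO+RGZ, or 8.58-fold higher. The GADD45 genes Gadd45a, Gadd45b and Gadd45g were 10.8-fold, 9.61-fold and 4.86-fold higher. Of 15 BCL2 family genes 4 were higher and 1 lower, while 9 had a difference below 0 (median -0.03, and 0.00 with the 75th percentile taken over probes above background on all arrays). The survival genes Bcl2l1 and Mcl1 were 10.2-fold and 3.03-fold higher and the death-promoting Bcl2l11 3.50-fold, whereas the death-promoting Bik was 2.39-fold lower. Cell cycle genes were 7 of 18 higher and 1 lower (median 0.51), at low signals, with Mki67 at 87.6 against 28.4, and 0 of the 18 were at least 2-fold higher with normexp background correction and 3 with spike-in scaling.

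Of 8 erythroid markers 4 were higher (2 with normexp; median 0.94), with Hbb-bt at 16130 against 8008 and 13176 with vehicle. Their summed signal was 88685 with vehicle, 90411 with TGZ, 101956 with BSO+TGZ, 51766 with RGZ and 55280 with BSO+RGZ, lower on both rosiglitazone arrays. All 17 genes of the HSD3B, growth hormone and sex-biased list had a difference above 0 (median 0.75), with 4 at least 2-fold higher, Hsd3b6 at 2.20-fold among them. The count was 0 with normexp and 2 with median or spike-in scaling. In the clock list, the repressor gene Nfil3 was 9.69-fold higher and Dbp lower, with 4 of 17 higher and 1 lower (median 0.16). The counts had no stable direction, with 1 higher and 5 lower with spike-in scaling (median -0.16), 3 and 4 with median scaling, and 1 and 1 with normexp.

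The same pair of compounds without BSO, at the same dose and time, came from 2 other arrays and so shares no array with the comparison above. These were the 2 pairs of compounds compared. Without BSO, 9.22% of genes were at least 2-fold higher with TGZ than with RGZ and 8.40% lower. Higher genes were 52.3% of those past 2-fold without BSO, and 17.2% with spike-in scaling. Of the 1719 genes higher with BSO that had a value without it, 1278 (74.3%) were also higher without BSO, and of the 1109 lower genes 862 (77.7%) were also lower. In reverse, 66.9% of the genes higher without BSO and 48.0% of those lower without BSO were so with BSO. Across the 18663 genes measured on all 4 arrays the differences correlated with r = 0.867, where all 4 arrays shared a slide and genes are not independent. The SD of the difference across these genes was 0.71 with BSO and 0.85 without. None of these differences between the pairs was tested.

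Many of the strongest differences were smaller with BSO. Of the 20 largest higher genes, all were higher without BSO too, and 5 had the larger difference with BSO (8 with spike-in scaling). Of the 20 largest lower genes, all were lower without BSO, and 7 had the larger difference with it. Cyp7a1 was 13.8-fold lower with BSO and at least 163-fold lower without. G6pc was 2.64-fold lower with BSO and 16.2-fold lower without. Cd14 was 22.8-fold higher with BSO and 104-fold higher without. Of the 20 endoplasmic reticulum chaperones 17 had the larger difference with BSO (median -0.74 against -0.54 without), and of the 19 proteasome subunits 17 (-0.25 against -0.08). This depended on the scaling: with spike-in scaling the counts were 13 of 20 and 8 of 19, and the medians -1.06 against -1.09 and -0.56 against -0.63. Other lists varied widely, with the larger difference with BSO in 21 of 28 drug-metabolizing cytochromes P450 and in 5 of 23 immediate early genes. How often it was larger with BSO over all genes was not counted.

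Some genes separated the compounds with BSO and hardly without it. Caly, an endocytic protein gene of neurons, had signals of 45.7 with vehicle, 44.1 with TGZ, 137 with BSO+TGZ, 32.7 with RGZ and 35.3 with BSO+RGZ, so that BSO+TGZ alone stood apart. The kinase gene Map4k1 and the T-box factor gene Tbx20 had the same shape, at 82.7 and 75.1 with BSO+TGZ against 25.4 and 23.9 with BSO+RGZ. Klf12, a repressor, was low with BSO+RGZ alone, at 154 against 447 with BSO+TGZ and 654 with vehicle. Among the lower genes, Gstp1, Ugt2b35, a glucuronosyltransferase gene, and Snhg11, a noncoding RNA, were highest with BSO+RGZ. Ugt2b35 had 260 with vehicle, 150 with TGZ, 208 with BSO+TGZ, 220 with RGZ and 538 with BSO+RGZ. Most of these genes had low signals, and their folds with BSO lay between 2.33 and 3.88.

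**Figure D5:**
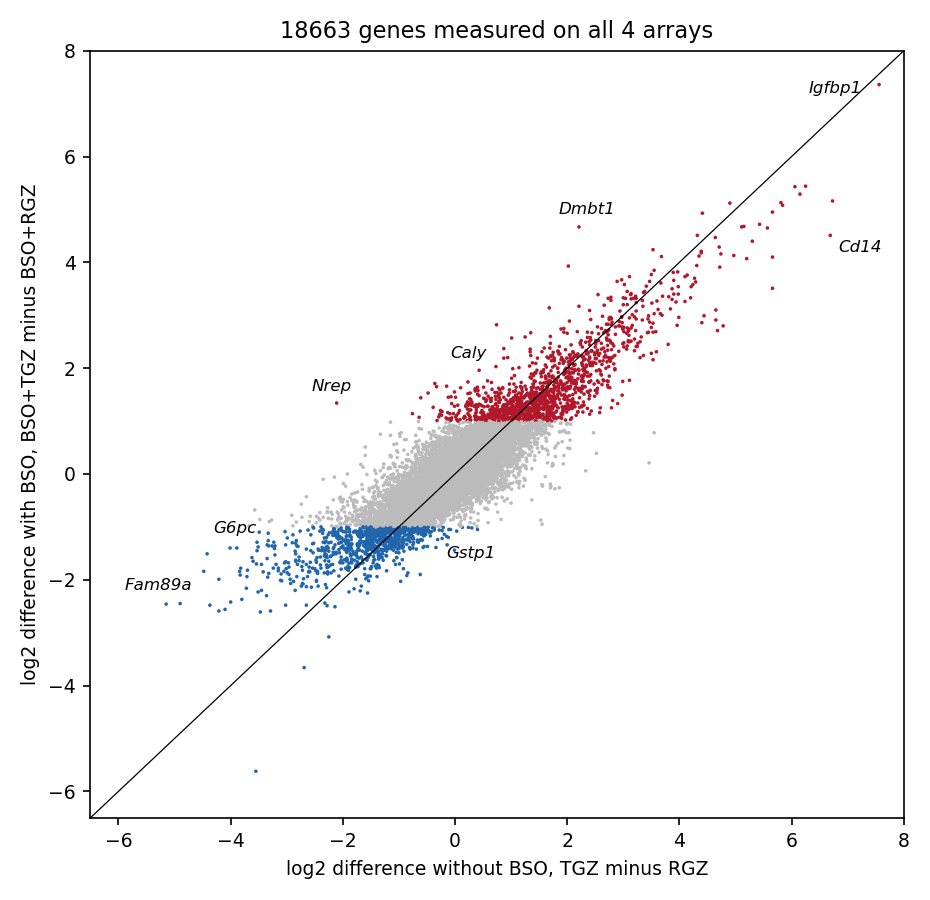
Log2 difference between the compounds with BSO (y axis) and without BSO (x axis) for the 18663 genes measured on all 4 arrays; the diagonal marks equal differences, and red and blue points are at least 2-fold higher or lower with BSO. Most coloured points keep their sign on the x axis, Cd14, G6pc and Fam89a lie nearer 0 with BSO than without, and Nrep has opposite signs.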

How the data were processed

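Total liver RNA was pooled in equal amounts from 6 mice per group, labelled with 1 dye (Cy3) and hybridised to 5 arrays on 1 slide, per the labels' protocols. The deposited scanner files hold the authors' spot intensity values, background-subtracted as processed signal by Agilent Feature Extraction 12.0.3.1 with probe positions on mm9, per the file headers. The authors also deposited a log2 value table. Set against the scanner values, each of its columns was log2 processed signal plus 1 constant, scaled to a common 75th percentile and not centred per gene, with column medians of 4.07 for BSO+TGZ and 3.92 for BSO+RGZ. The making of that table was otherwise not given in the sources used here.

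From the scanner files, control spots and spots flagged as outliers were removed, and the spots of a probe averaged. Processed signals were put on the log2 scale and scaled to the 75th percentile of each array. For a difference, a value not well above background was raised to the lowest signal called well above background on that array, where it lay below it. A bound whose sign turned in this way was set to 0. The signals printed here were not floored. Background detection used the scanner's well-above-background flag, and no spot was saturated. Arrays have no read depth; their number sets the precision. The intervals use the scanner's error of each processed signal. Probes that occur in 10 spots varied with a median SD of about 0.04 on the log2 scale. The calculation was tested on simulated data. Promoters came from RefSeq (GRCm38.p6) and were matched by symbol. The 52 gene lists, the comparison and the rule for named genes were chosen with earlier results of these data known. The text names the 20 largest measured differences each way and the 6 largest bounds among higher genes, but of the bounds among lower genes only Xrcc3. It also names up to 6 members of each list, and genes on opposite sides of vehicle or that differed with and without BSO. Alternatives were other background corrections, scalings, filters, probe rules and the deposited table. Analyses, quantile normalization among them, used Python 3.11.15, numpy 2.4.6 and pandas 2.3.3. Normexp background correction used R 4.3.3 with limma 3.58.1.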

Additional observations from a re-analysis of the deposited data

Results flagged for a closer look

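Nrep, a regulator of neurons and wound healing, was the only gene of those with a value in both pairs that was at least 2-fold higher with troglitazone in 1 pair and at least 2-fold lower in the other. Its signals were 1753 with vehicle, 255 with TGZ, 744 with BSO+TGZ, 1098 with RGZ and 295 with BSO+RGZ. The difference was 1.34 on the log2 scale with BSO and -2.11 without it. All 4 treated arrays lay below vehicle, TGZ and BSO+RGZ farthest. With 1 array per group, the difference between the pairs was not tested.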

How the results depend on the processing

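The count of genes at least 2-fold higher and lower with BSO+TGZ was 1774 and 1124. It was 739 and 445 with normexp background correction, 1067 and 2410 with spike-in scaling, and 3601 and 2070 with no filter and no floor. With median scaling it was 1370 and 1656, with quantile normalization 1562 and 1264, and with the log2 values as deposited 1777 and 1124. All 218 named genes past 2-fold kept their direction under every setting that gave them a value. Several settings could not have given another outcome. Median scaling moved measured genes by -0.15 and spike-in scaling by -0.32 on the log2 scale, too little to reverse a 2-fold difference. The deposited values differ from the scanner values only by a constant per array. With normexp 162 of the 218 genes were past 2-fold, and with spike-in scaling 193. Of the 52 list medians, 26 kept 1 sign under all 10 alternatives. The median of immediate early genes was 1.56 with normexp. Neutrophil markers had a median of 0.72 with normexp and 1.82 over genes above background on both arrays. Cholangiocyte markers had 0.41 with normexp and 1.52 with no filter and no floor. The slide could not be fitted as a block, since all arrays lay on 1 slide. No paired analysis was possible because each group was 1 array with no replicate. The spread between animals is unknown, and signals near background have wide intervals.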

Other observations

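Genes of clotting and vessel walls included large differences within lists that were otherwise near 0. Of 19 coagulation genes 4 were at least 2-fold higher with BSO+TGZ and 1 lower (median 0.24, and -0.08 with spike-in scaling). Thbd, the anticoagulant receptor thrombomodulin, was 17.4-fold higher, and F3, tissue factor, 2.86-fold lower. Of 14 endothelial markers 3 were higher, with Vwf at 9.89-fold, Lyve1 at 4.45-fold and Cdh5 at 2.56-fold, and none lower (median 0.11, with a negative sign under median and spike-in scaling). Of 19 growth factors and receptors 5 were higher and 5 lower (2 and 3 with normexp). The activin subunit gene Inhbb was 15.4-fold higher and its relative Inhbe 3.58-fold lower, and the EGF family receptor gene Erbb3 was 3.01-fold lower.

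Cholesterol synthesis genes lay below vehicle with both compounds rather than apart. Of 24 with a value, 17 were at least 2-fold below vehicle with BSO+TGZ and 16 with BSO+RGZ, against the same vehicle array. Between the compounds 2 were higher and 1 lower (1 and 3 with spike-in scaling). Mvd, which makes isopentenyl diphosphate, had signals of 322 with vehicle, 29.8 with TGZ, 58.1 with BSO+TGZ, 150 with RGZ and 212 with BSO+RGZ, or 3.65-fold lower. Among amino acid transporters 4 of 17 were higher and none lower (median 0.34). Slc38a2 had 6420 with BSO+TGZ against 1099 with BSO+RGZ, 5.84-fold higher, and the arginine transporter gene Slc7a1 was 5.02-fold higher. Slc39a14, a zinc and iron importer, was 3.62-fold higher, while the metallothionein gene Mt1 had 47932 with vehicle, 242608 with BSO+TGZ and 201114 with BSO+RGZ, 1.21-fold apart with an interval that includes 1.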
